A study of Mus musculus with 27 samples.

Results

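Vegfa, Slc2a1, Pgk1, Ldha, Hk2, Ndrg1, Bnip3 and Adm are 8 mouse genes that cells short of oxygen are known to switch on. They were followed through 13 probe sets, taken as a list of gene names and probe set numbers, of 45101 probe sets on the array. All 13 were among the 32842 probe sets that passed a filter on low signals. Of these, 12 reached the filter level on all 21 arrays, and the Vegfa probe set 1451959_a_at reached it on 20, so none entered only through a group where it was high.

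The study asked how medulloblastoma responds to NVP-LDE225 (LDE225), a drug that blocks Smoothened, and how tumours differ once they no longer respond. Every tumour came from Ptch+/-p53-/- mice, which lack p53 and carry a single working copy of Ptch, the brake on Hedgehog signalling, and was grown under the skin of immune-deficient nu/nu mice from inoculated tumour cells. Dosing began 10 days after the cells were implanted. RNA was measured on 21 arrays, with 1 tumour per array. Of these, 5 were resistant tumours given LDE225 in 2 daily doses up to day 26, 3 of them with 160 mg/kg/day and 2 with 20 mg/kg/day. Another 8 were sensitive tumours on LDE225 once a day (20 mg/kg/day), 3 collected 4 h, 3 collected 16 h and 2 collected 48 h into treatment. The last 8 had received vehicle over the same times with equal numbers, and no RNA array held a vehicle tumour of day 26. DNA was measured on 6 further arrays, from 3 resistant tumours at 40, 80 and 160 mg/kg/day and 3 vehicle tumours, all of day 26. These are grafts outside the brain, with vessels supplied by the host.

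When oxygen is low, the HIF transcription factors escape the prolyl hydroxylases and the VHL protein that otherwise lead to their destruction, and they bind short DNA elements near their target genes. The targets take in glucose, run glycolysis, make lactate, call in blood vessels and adjust mitochondria. Hedgehog signalling is also known to drive glycolysis and Hk2 in cerebellar granule neuron precursors, the cells from which this medulloblastoma arises.

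The core of a HIF-binding element reads ACGTG. The RefSeq promoter table (GRCm38.p6, 250 bases before to 50 after each start) had windows for 7 of the 8 genes, and Ndrg1 had none. The letters ACGTG, on either strand, stood in 19.6% of all 32851 windows. They stood in 6 of the 9 windows of these genes. The first listed windows of 5 genes held them and are printed on the strand of the gene, 5′ to 3′. Capitals mark ACGTG on either strand (CACGT when read on the printed strand, and CACGTG where both overlap). A match describes the letters only.
Ldha: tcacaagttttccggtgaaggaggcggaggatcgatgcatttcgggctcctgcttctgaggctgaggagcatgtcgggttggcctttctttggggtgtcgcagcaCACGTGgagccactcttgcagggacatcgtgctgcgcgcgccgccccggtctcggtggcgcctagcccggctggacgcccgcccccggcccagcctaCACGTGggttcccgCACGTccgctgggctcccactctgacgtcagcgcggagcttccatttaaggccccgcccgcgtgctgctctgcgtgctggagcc
Bnip3: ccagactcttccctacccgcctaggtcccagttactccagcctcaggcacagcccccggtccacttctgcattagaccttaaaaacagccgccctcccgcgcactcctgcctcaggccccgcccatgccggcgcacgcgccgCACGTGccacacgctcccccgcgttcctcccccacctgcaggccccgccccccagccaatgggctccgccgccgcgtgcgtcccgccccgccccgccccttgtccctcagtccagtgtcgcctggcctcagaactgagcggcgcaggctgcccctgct
Pgk1: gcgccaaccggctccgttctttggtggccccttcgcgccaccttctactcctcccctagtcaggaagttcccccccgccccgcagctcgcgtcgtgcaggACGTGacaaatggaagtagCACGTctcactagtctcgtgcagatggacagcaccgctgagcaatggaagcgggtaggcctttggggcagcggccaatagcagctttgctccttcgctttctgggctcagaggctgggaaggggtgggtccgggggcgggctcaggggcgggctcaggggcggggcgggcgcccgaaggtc
Slc2a1: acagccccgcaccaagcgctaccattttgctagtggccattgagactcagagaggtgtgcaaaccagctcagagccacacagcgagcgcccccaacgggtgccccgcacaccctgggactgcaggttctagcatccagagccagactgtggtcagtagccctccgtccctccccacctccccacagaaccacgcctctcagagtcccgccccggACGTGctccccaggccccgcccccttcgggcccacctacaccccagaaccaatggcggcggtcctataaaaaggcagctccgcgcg
Hk2: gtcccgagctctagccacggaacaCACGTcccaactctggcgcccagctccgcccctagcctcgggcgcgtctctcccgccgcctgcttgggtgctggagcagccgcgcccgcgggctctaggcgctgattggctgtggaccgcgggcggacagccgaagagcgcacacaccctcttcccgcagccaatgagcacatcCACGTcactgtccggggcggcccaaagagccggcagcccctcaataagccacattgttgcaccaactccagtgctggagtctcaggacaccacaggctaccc

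The Ldha window, chr7:46845554-46845853 on the plus strand, held 3 capital runs, which began 145, 48 and 34 bases before the start. The Bnip3 window, chr7:138909457-138909756 on the minus strand, held 1 run, 108 bases before the start. The Pgk1 window, chrX:106186850-106187149 on the plus strand, held 2 runs, at 150 and 131 bases before the start. The Pgk1 runs lay a short way apart in opposite orientations. The Slc2a1 window, chr4:119108495-119108794 on the plus strand, held 1 run at 36 bases before the start. The Hk2 window, chr6:82774405-82774704 on the minus strand, held 2 runs at 226 and 52 bases before the start. The window of Adm, the first window of Vegfa and the second window of Ldha (chr7:46846832-46847131) held no ACGTG on either strand. The second Vegfa window (chr17:46025114-46025413, minus strand) held 1 run. On this strand it lies downstream of the first Vegfa window (chr17:46032328-46032627). Other forms of the core were not searched for in any window. The Vegfa element known from the literature lies further upstream than these windows reach.

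All expression values below are MAS5 signals, in arbitrary units. A signal may be compared between tumours for 1 probe set but not between probe sets. Changes are log2 differences of signal + 4 from limma, with p-values adjusted over the 32842 probe sets and a threshold of 0.05. Where several groups were joined, each group counted equally, whatever its number of tumours. Nothing in the labels says whether tumours came from separate cell preparations, so p-values measure the spread between these tumours. In bulk tumour RNA, fewer cells of a type and less RNA per cell cannot be told apart. The array means lay between 221.4 and 256.4. The ratio of 3′ to 5′ actin signal, which depends on RNA quality and on labelling, was 1.25 to 1.40 on the 9 arrays of 48 h and resistant tumours, against 1.53 to 1.91 on the 12 arrays of 4 h and 16 h. It therefore moved with every comparison that crosses these arrays, and its part in those results was not tested.

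At 4 h, LDE225 had moved 1 of the 13 probe sets, Hk2, which was lower. Hk2 encodes the inducible hexokinase that traps glucose in the cell, the first step of glycolysis. Hk2 signal was 768, 668 and 562 in LDE225 tumours, against 1568, 1455 and 1364 in vehicle tumours. The groups did not overlap, and every treated tumour was clearly below every vehicle tumour. The log2 difference was -1.14 ± 0.18 (SE, n = 3 each), a 2.20-fold lower signal, with an adjusted p of 0.014 (limma). Over all probe sets, 0.0944% passed as lower in this comparison and 0.104% in either direction. The call rested on few tumours: without vehicle mouse 1, 2 or 3 the adjusted p was 0.104, 0.0762 and 0.0746, and without LDE225 mouse 2 or 3 it was 0.087 and 0.0557.

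The other 12 probe sets did not pass at 4 h. Bnip3, a mitochondrial protein that promotes mitophagy, came nearest, with signals of 363, 300.2 and 463 in LDE225 tumours and 493, 937 and 854 in vehicle tumours. All treated values were below all vehicle values, but the vehicle tumours were far apart and the difference of -0.98 ± 0.31 had an adjusted p of 0.528 (limma). The median difference over the 13 probe sets was -0.29, against 0.02 over all probe sets tested.

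At 16 h, 2 of the 13 probe sets were lower under LDE225 than under vehicle and 1 was higher. Of all probe sets 14.4% passed (6.53% as lower, 7.87% as higher). Hk2 was lower again, and 1 probe set each of Vegfa and Ndrg1 differed, in opposite directions. Hk2 signal was 512, 465 and 485 in LDE225 tumours, against 871, 1298 and 1311 in vehicle tumours. Vehicle mouse 1 was well below the other vehicle tumours, yet above all treated ones. The difference was -1.22 ± 0.18, with an adjusted p of 0.000139 (limma).

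Vegfa encodes the main growth factor of blood vessels. Its probe set 1420909_at gave 29.6, 23.4 and 41.6 in LDE225 tumours and 42.8, 70.3 and 117.5 in vehicle tumours at 16 h. The groups lay side by side without overlap, with the lowest vehicle tumour just above the highest treated one. The difference of -1.11 ± 0.36 had an adjusted p of 0.0438. The other Vegfa probe set, 1451959_a_at, gave 23.3, 22.5 and 31.2 in LDE225 tumours and 10.5, 48.4 and 49.8 in vehicle tumours. Vehicle mouse 1 was the lowest of all, the groups overlapped, and the difference of -0.23 ± 0.38 did not pass (adjusted p = 0.761, limma).

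Ndrg1, a cytoplasmic protein induced by hypoxia and differentiation, was the exception in direction at 16 h. Probe set 1420760_s_at gave 185.5, 201.0 and 188.5 in LDE225 tumours, against 107.6, 131.3 and 132.0 in vehicle tumours. Every treated tumour was higher, by 0.62 ± 0.19 on the log2 scale (adjusted p = 0.0321, limma). Probe set 1450976_at was also without overlap, at 0.60 ± 0.23, but had an adjusted p of 0.0918. The remaining Ndrg1 probe set, 1423413_at, overlapped between the groups and differed by 0.30 ± 0.25 (adjusted p = 0.486). After quantile normalization or median centring of the arrays no probe set of the 8 genes passed as higher at 16 h. The count of 3 was 1 without vehicle mouse 3, LDE225 mouse 1 or LDE225 mouse 2. The Ndrg1 call was lost without vehicle mouse 1 or 3 (adjusted p = 0.133 and 0.0522) or any LDE225 mouse (0.0709, 0.0967 and 0.0807), and the Vegfa call without vehicle mouse 2 or 3 (0.0878 and 0.215) or LDE225 mouse 1 or 2 (0.111 and 0.156). This Vegfa call was also lost with an offset of 32 (0.0642), no filter (0.0553) or no trend (0.0687). It held in 8 of 15 alternatives.

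At 48 h, 11 of the 13 probe sets, of 6 of the 8 genes, were lower under LDE225 than under vehicle, and none was higher. Over all probe sets, 11.1% passed as lower and 22.7% passed in either direction. All 13 probe sets were lower in both LDE225 tumours than in both vehicle tumours, a separation that 29.3% of all probe sets showed in that direction. The median difference was -1.39, against 0.09 over all probe sets tested.

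Hk2 showed the largest difference among the 13 probe sets at 48 h. Its signal was 248 and 276 in LDE225 tumours, against 1517 and 1682 in vehicle tumours. It was 6.04-fold lower (log2 -2.59 ± 0.22, adjusted p = 5.65e-07, limma, n = 2 each). These were the lowest Hk2 values of all 21 tumours.

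Slc2a1 encodes GLUT1, the transporter that brings glucose into the cell, and its 3 probe sets differed by like amounts. For 1426599_a_at the signals were 83.0 and 72.3 in LDE225 tumours and 219.4 and 315.5 in vehicle tumours. For 1426600_at they were 73.2 and 51.7 in LDE225 tumours and 159.3 and 191.6 in vehicle tumours. For 1434773_a_at they were 163.0 and 163.2 in LDE225 tumours and 407.9 and 482.4 in vehicle tumours. Each treated tumour was thus far below both vehicle tumours on every Slc2a1 probe set. The differences ran from -1.71 to -1.42, with adjusted p-values from 0.000245 to 0.00087 (limma).

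The later glycolytic enzymes showed smaller differences than Hk2 and Slc2a1. Pgk1, phosphoglycerate kinase, gave 2766 and 2612 in LDE225 tumours and 3762 and 4570.0 in vehicle tumours. It fell by 0.62 on the log2 scale (SE 0.20, adjusted p = 0.0286, limma), and did not pass without the mean-variance trend (0.0565), without vehicle mouse 3 (0.259) or without LDE225 mouse 1 or 2 (0.0853 and 0.141). Ldha, the lactate dehydrogenase subunit that favours making lactate from pyruvate, gave 3843 and 3813 in LDE225 tumours and 5101 and 6071 in vehicle tumours. The Ldha groups did not overlap, but the difference of -0.54 ± 0.23 had an adjusted p of 0.0983. It passed with quantile normalization (-0.58, adjusted p = 0.00237, limma) and with only the groups compared in the fit (0.0422).

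Both secreted vascular factors were lower under LDE225 than under vehicle at 48 h. Vegfa 1420909_at gave 20.2 and 51.4 in LDE225 tumours and 156.5 and 139.6 in vehicle tumours, a difference of -2.05 ± 0.44 (adjusted p = 0.00234, limma). Vegfa 1451959_a_at gave 24.5 and 24.4 in LDE225 tumours and 100.5 and 156.9 in vehicle tumours, a difference of -2.19 ± 0.46 (adjusted p = 0.00212). On both probe sets the vehicle tumours stood well above the treated ones. Adm, the vasodilator peptide adrenomedullin, gave 54.7 and 82.5 in LDE225 tumours and 174.2 and 182.4 in vehicle tumours. Adm was lower than in vehicle tumours by 1.35 on the log2 scale (SE 0.40, adjusted p = 0.0206, limma). Mean Adm signal at 4 h, 16 h and 48 h was 47.9, 47.8 and 68.6 under LDE225. Under vehicle it was 66.3, 67.4 and 178.3. For Vegfa 1451959_a_at the means were 31.7, 25.7 and 24.5 under LDE225 and 40.3, 36.2 and 128.7 under vehicle. For Vegfa 1420909_at they were 56.0, 31.5 and 35.8 under LDE225 and 76.0, 76.9 and 148 under vehicle. The Adm call was lost without vehicle mouse 1 or 3 (0.0592 and 0.124) or LDE225 mouse 1 (0.16), and that of Vegfa 1420909_at without LDE225 mouse 1 (0.0588).

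All 3 Ndrg1 probe sets were lower under LDE225 than under vehicle at 48 h. The signals of 1423413_at were 30.5 and 31.7 in LDE225 tumours, against 89.2 and 86.5 in vehicle tumours, the widest gap of the 3 (-1.39 ± 0.30, adjusted p = 0.0028, limma). The other Ndrg1 probe sets differed by -0.90 ± 0.28 for 1450976_at (adjusted p = 0.0279) and by -0.71 ± 0.23 for 1420760_s_at (adjusted p = 0.0331). These 2 calls were lost without vehicle mouse 3 (0.201 and 0.25), LDE225 mouse 1 (0.0784 and 0.11) or LDE225 mouse 2 (0.141 and 0.13), and with the replicate number as a block (0.0622 and 0.0756). Bnip3 did not pass: its signals were 939 and 873 in LDE225 tumours and 1116 and 1293 in vehicle tumours, and the difference was -0.41 ± 0.38 (adjusted p = 0.482).

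The 48 h count depends on few tumours. It was 6 without LDE225 mouse 1, 7 without vehicle mouse 3, 8 without LDE225 mouse 2 and 10 without vehicle mouse 1. A lone remaining tumour was then assumed to vary like the other groups. Set against the vehicle tumours of 4 h and 16 h, which had the higher actin ratio, the LDE225 tumours of 48 h still gave 7 lower probe sets (17.4% of all probe sets were lower and 38.8% passed), of Hk2, Slc2a1, Pgk1, Vegfa 1420909_at and Ndrg1 1423413_at. There Hk2 differed by -2.29 ± 0.18 (adjusted p = 3.44e-08, limma), while Adm differed by 0.08 ± 0.33 and Bnip3 by 0.42 ± 0.31, and neither passed.

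**Figure D1:**
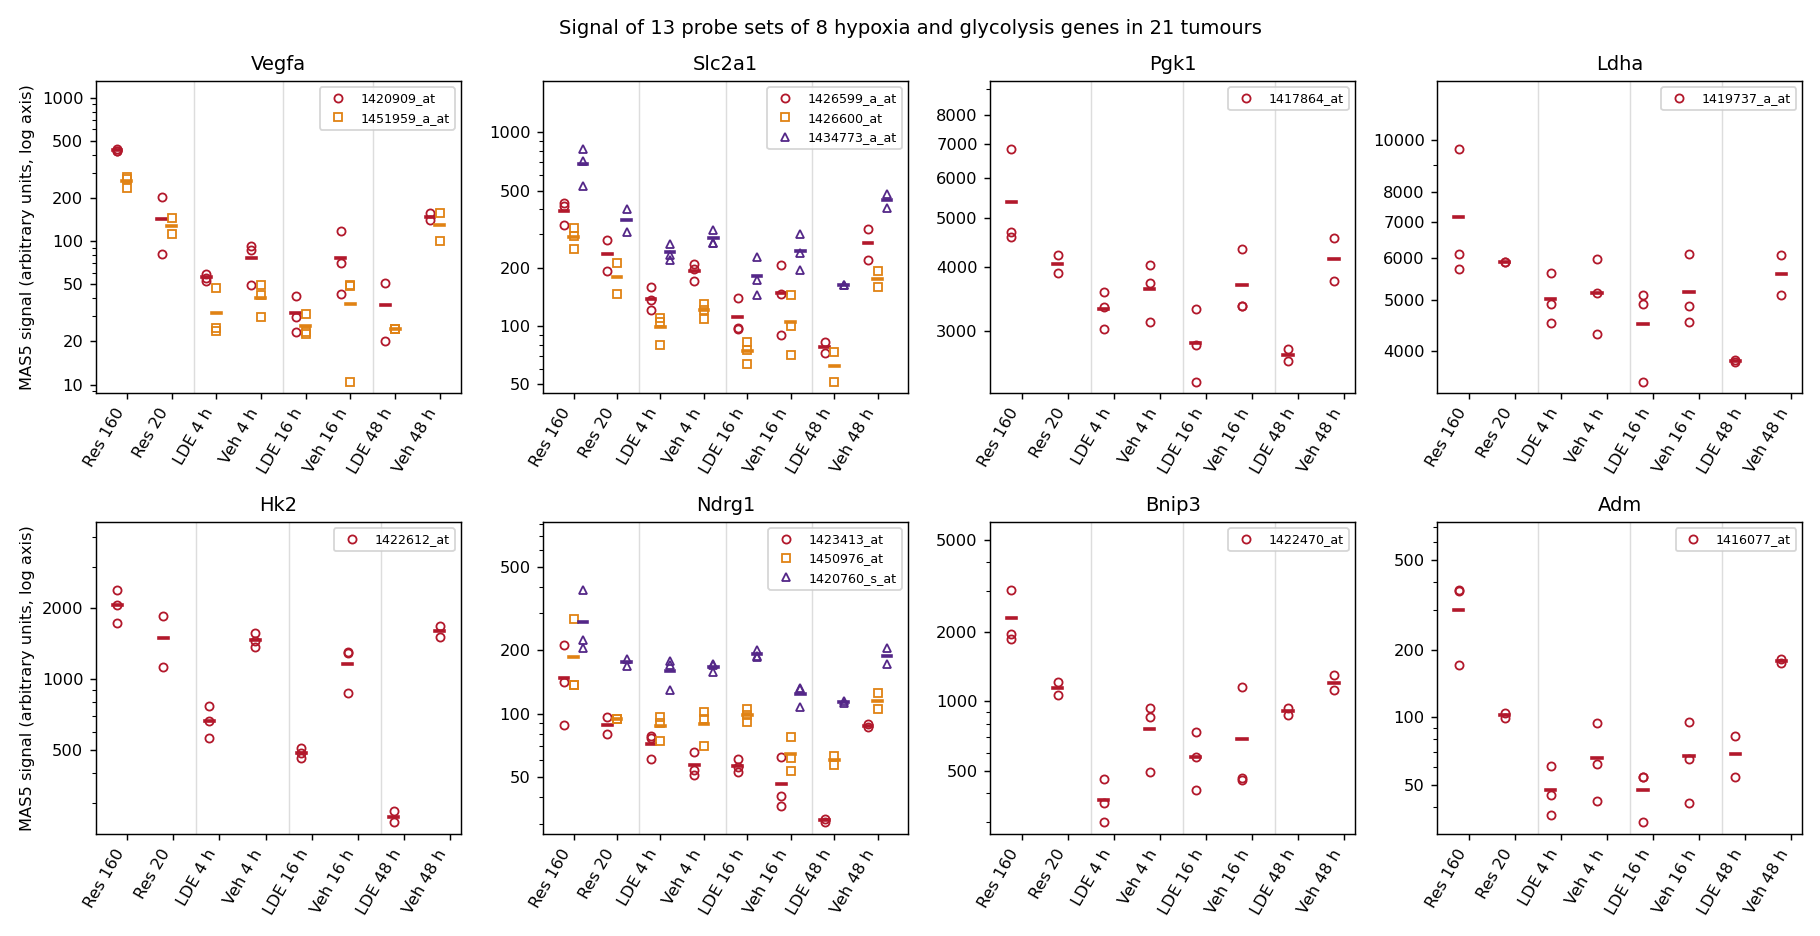
Signal of each probe set (arbitrary units, log axis) in each of the 21 tumours, by gene. Res, LDE and Veh mark resistant, LDE225-treated sensitive and vehicle tumours, numbers after Res give the dose in mg/kg/day, open symbols are single tumours and short bars are group means. Hk2 is lowest in the LDE225 tumours of 48 h (248 and 276), and Vegfa 1420909_at is highest in the resistant tumours at 160 mg/kg/day (423 to 439).

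The size of the drug effect was then compared between times. Between 4 h and 48 h the effect of LDE225 became more negative for 6 of the 13 probe sets, against 6.7% of all probe sets in that direction and 12.8% in either. These were the 3 probe sets of Slc2a1 and 1 each of Vegfa, Hk2 and Ndrg1. Each such change includes the difference between vehicle tumours of 48 h and 4 h. That difference was 1.57 for Vegfa 1451959_a_at, 0.46 to 0.64 for Slc2a1, 0.13 for Hk2 and 0.6 for Ndrg1 1423413_at. None of these vehicle differences passed. The Hk2 effect was lower by 1.45 on the log2 scale at 48 h than at 4 h, which is -1.45 ± 0.29 (adjusted p = 0.00267, limma). The effect on Ndrg1 1423413_at changed by -1.70 ± 0.39 (adjusted p = 0.00777). Its effect was 0.31 at 4 h and -1.39 at 48 h, and the first of these did not pass. The count of 6 fell to 2 without vehicle mouse 3 of 48 h and to 3 without vehicle mouse 1 or 2 of 4 h, LDE225 mouse 1 or 3 of 4 h, or LDE225 mouse 2 of 48 h.

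Between 4 h and 16 h the effect changed for 0 of the 13 probe sets by limma, against 3.83% of all probe sets. At an unadjusted p under 0.05 there was 1 such probe set, Ndrg1 1420760_s_at, against 17.5% of all probe sets.

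Vehicle tumours were not level over time. Between 48 h and 4 h, 0 of the 13 probe sets passed by limma (0.746% of all probe sets did), and 6 had an unadjusted p under 0.05, against 11.9% of all probe sets. All 13 differences were positive, with a median of 0.52 against 0.01 over all probe sets tested, and 9 probe sets had no overlap, against 16.2% of all probe sets in that direction. Adm signal was 174.2 and 182.4 in vehicle tumours of 48 h, against 42.4, 62.4 and 94.2 in those of 4 h. The later tumours were well above all the earlier ones, by 1.44 ± 0.37 (adjusted p = 0.0805). Vegfa 1451959_a_at gave 100.5 and 156.9 at 48 h and 29.6, 41.8 and 49.6 at 4 h, a difference of 1.57 ± 0.42 (adjusted p = 0.0958). The LDE225 difference at 48 h is measured against these vehicle tumours.

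**Figure D2:**
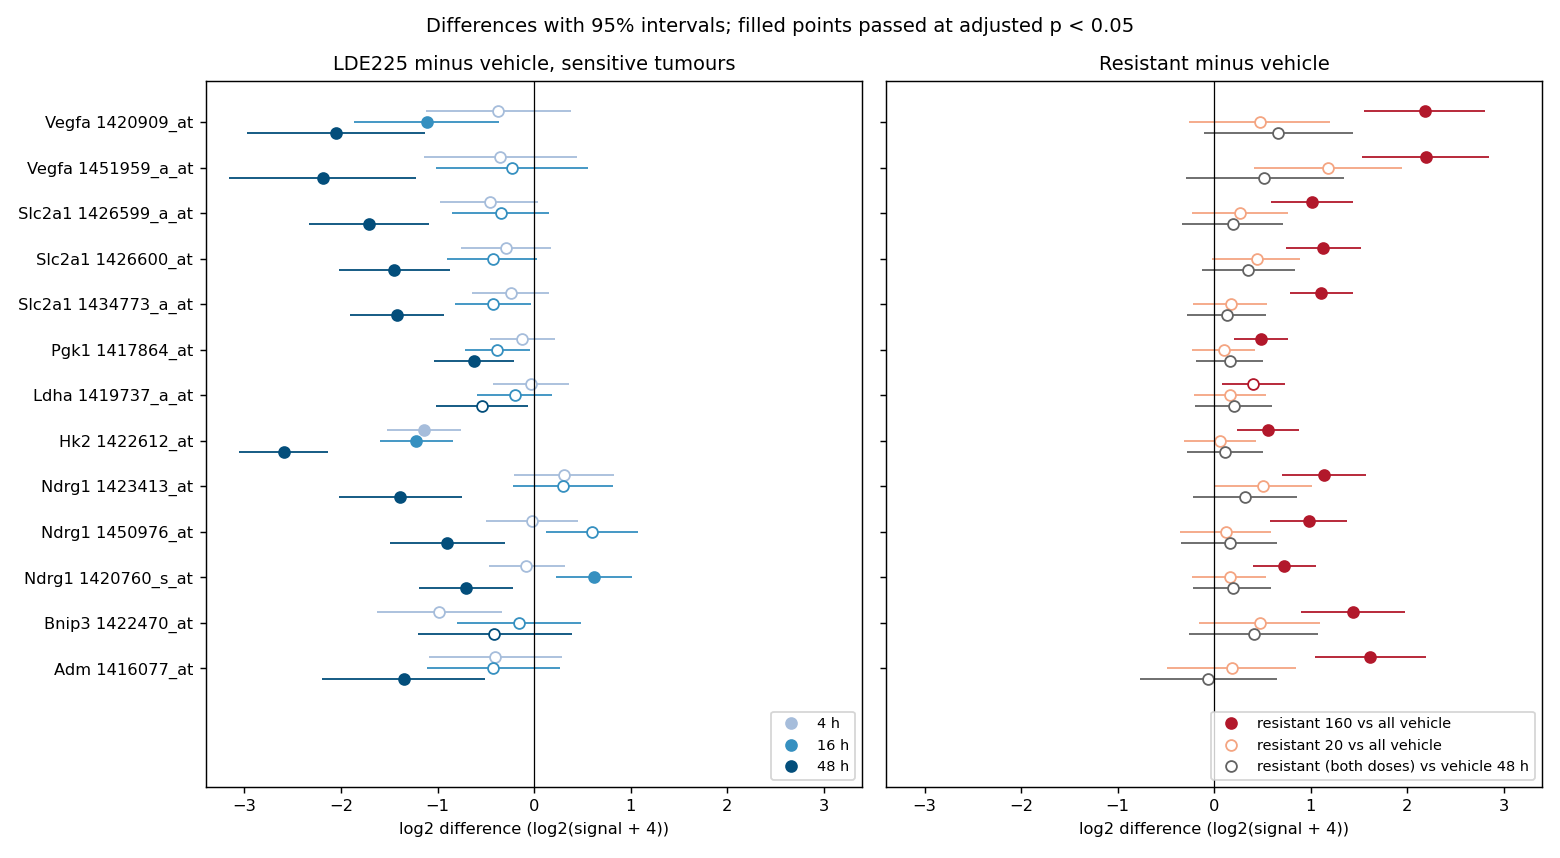
Log2 differences with 95% intervals for the 13 probe sets, LDE225 minus vehicle at 4 h, 16 h and 48 h on the left and resistant minus vehicle on the right. Filled points passed the adjusted threshold: 11 probe sets lie there below 0 at 48 h, 12 above 0 for resistant tumours at 160 mg/kg/day against all vehicle tumours, and 0 for resistant tumours against the vehicle tumours of 48 h.

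In resistant tumours, 10 of the 13 probe sets, of 5 of the 8 genes, were higher than in all vehicle tumours together, and none was lower. Over all probe sets 6.48% passed as higher and 10.8% in either direction. The genes were Vegfa, Adm, Slc2a1, Ndrg1 and Bnip3. The groups overlapped for all 13 probe sets. The resistant tumours were of day 26, and the vehicle tumours were collected at 4 h to 48 h. Resistance, LDE225 treatment and time of growth therefore cannot be told apart in any comparison of resistant with vehicle RNA. The median difference was 0.64, against 0.07 over all probe sets tested. Both dose groups counted equally here, so the 2 low-dose tumours weighed as much as the 3 high-dose ones.

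Vegfa showed the largest differences. Probe set 1420909_at gave 428, 439 and 423 in resistant tumours on the higher dose, 202.5 and 81.8 on the lower, against 42.8 to 156.5 (median 89.3) in the 8 vehicle tumours. The high-dose tumours lay close together and far above every vehicle tumour, and low-dose mouse 2 lay within the vehicle range. The difference was 1.33 ± 0.26, or 2.51-fold (adjusted p = 0.00262, limma). Probe set 1451959_a_at gave 236.3, 278.8 and 269.9 on the higher dose, 144.2 and 111.9 on the lower, against 10.5 to 156.9 (median 49.0) in vehicle tumours. Only the low-dose tumours reached into the vehicle range, and the difference was 1.69 ± 0.27 (adjusted p = 0.000523).

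Adm gave 363.2, 170.3 and 368.5 on the higher dose, 99.7 and 105.1 on the lower, against 41.6 to 182.4 (median 79.8) in vehicle tumours. High-dose mouse 2 lay below the vehicle tumours of 48 h, and the other high-dose tumours lay far above them. The Adm difference, with dose groups and vehicle times weighted equally, was 0.90 ± 0.24 (adjusted p = 0.0193, limma). Without low-dose mouse 1 or 2 it was 0.91 and 0.88, and did not pass.

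Slc2a1 rose on all 3 probe sets, by 0.64 to 0.78 on the log2 scale, with adjusted p-values from 0.00383 to 0.0219 (limma). For 1434773_a_at the signals were 530.0, 821 and 711 in resistant tumours on the higher dose, 403 and 305 on the lower, against 195.3 to 482.4 (median 285) in vehicle tumours. All high-dose tumours were above all vehicle tumours, and the low-dose tumours were not. The other glycolysis genes did not pass: Hk2 differed by 0.31 ± 0.13 (adjusted p = 0.131), Pgk1 by 0.29 ± 0.12 (0.12) and Ldha by 0.28 ± 0.13 (0.183). Pgk1 and Ldha passed with quantile normalization (0.0251 and 0.0284) and with the replicate number as a block (0.00863 and 0.0185), and Hk2 passed without low-dose mouse 2 (0.0443). The call of Slc2a1 1426599_a_at was lost with median centring (0.0898), array weights (0.0561) or only the groups compared (0.0582), and without vehicle mouse 1 of 48 h (0.065) or low-dose mouse 1 (0.128).

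Hk2, which had already fallen at 4 h of LDE225 in sensitive tumours, gave 2060, 2399 and 1732 in resistant tumours on the higher dose, 1857 and 1128 on the lower, against 871 to 1682 (median 1409) in vehicle tumours. The resistant tumours were thus at or above the upper vehicle values, apart from low-dose mouse 2.

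Bnip3 gave 1963, 1862 and 3038 on the higher dose, 1212 and 1064 on the lower, against 456 to 1293 (median 895) in vehicle tumours. The high-dose tumours stood clear of every vehicle tumour. With both dose groups weighted equally, the Bnip3 difference was 0.95 ± 0.22 (adjusted p = 0.00895, limma). The 3 Ndrg1 probe sets rose by 0.44 to 0.82 (adjusted p from 0.00581 to 0.0407). On 1450976_at, high-dose mouse 1 gave 280.4, while the other resistant tumours gave 137.1 and 137.4 on the higher dose, 94.3 in each on the lower, against 53.6 to 124.8 (median 86.1) in vehicle tumours. That single tumour stood far above all the others. The calls of Ndrg1 1450976_at and 1420760_s_at held in 12 and 9 of 25 alternatives. They were lost with quantile normalization (0.0877 and 0.0703), median centring (0.123 and 0.203) or only the groups compared (0.101 and 0.102), and that of 1420760_s_at also with no filter (0.0519), no trend (0.0589) or the replicate block (0.0511). Without single tumours, 1450976_at was lost without mouse 2 of vehicle 4 h (0.0708), 1 or 2 of vehicle 16 h (0.0613 and 0.0557), 1 or 3 of vehicle 48 h (0.0835 and 0.0561), low-dose mouse 1 or 2 (0.0987 and 0.131) or high-dose mouse 1 (0.0673). Likewise, 1420760_s_at was lost without mouse 1 or 2 of vehicle 4 h (0.0689 and 0.0607), 1 of vehicle 16 h (0.0664), 1 or 3 of vehicle 48 h (0.0968 and 0.0532), low-dose mouse 1 or 2 (0.0842 and 0.165) or high-dose mouse 1 (0.0706). Ndrg1 1423413_at was lost without low-dose mouse 2 (0.0524).

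The resistant difference varied with dose and with the vehicle time. The 3 tumours at 160 mg/kg/day were higher than all vehicle tumours for 12 of the 13 probe sets (3.25% of all probe sets were higher and 6.18% passed), the exception being Ldha at 0.40 ± 0.16 (adjusted p = 0.134, limma). The 2 tumours at 20 mg/kg/day were higher for 0 of the 13 by limma, where 6.83% of all probe sets passed, and 1 probe set, of Vegfa, had an unadjusted p under 0.05, against 22.1% of all probe sets. Against the vehicle tumours of 48 h alone, which share the lower actin ratio, 0 of the 13 probe sets passed for all resistant tumours by limma (1.34% of all probe sets did), and 0 had an unadjusted p under 0.05, against 13.6% of all probe sets. The median difference was then 0.19, and Adm stood at -0.06 ± 0.34. Against those of 4 h alone 7 probe sets were higher (5.02% of all probe sets were, and 7.76% passed), and against those of 16 h alone 11 were (7.12% were, and 12.3% passed).

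For the tumours at 160 mg/kg/day against the vehicle tumours of 48 h, 0 of the 13 passed by limma (0.177% of all probe sets did), 9 had an unadjusted p under 0.05 (9.63% of all did), and 10 had no overlap and were higher, against 10.5% of all probe sets. Vegfa 1420909_at differed there by 1.51 ± 0.40 (adjusted p = 0.142). For those at 20 mg/kg/day, 0 passed by limma (2.29% of all did), 0 had an unadjusted p under 0.05 (16.5% of all did), and the median difference was -0.10. The count of 10 for all resistant against all vehicle tumours was 6 without low-dose mouse 1 and between 7 and 10 without any other single tumour.

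The direct comparison of the resistant groups covers 3 tumours at 160 mg/kg/day and 2 at 20 mg/kg/day. Of the 13 probe sets 1 was higher at the higher dose, Slc2a1 1434773_a_at, while 0.116% of all probe sets were higher and 0.773% passed in either direction. Its difference was 0.94 ± 0.21 (adjusted p = 0.0464, limma), a call that held in 6 of 14 alternatives. It was lost with no filter (0.0533), no trend (0.0928), array weights (0.162), the replicate block (0.0582) or the 5 resistant arrays alone (0.791), and without high-dose mouse 2 or 3 (0.111 and 0.0844) or low-dose mouse 2 (0.633). Vegfa 1420909_at differed by 1.70 ± 0.40 (adjusted p = 0.0532) and Adm by 1.44 ± 0.37 (adjusted p = 0.0792), and neither passed. All 13 differences were positive, with a median of 0.75 against -0.05 over all probe sets tested. For 10 probe sets every tumour at 160 mg/kg/day was above both at 20 mg/kg/day, against 9.73% of all probe sets.

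Resistant tumours were also set against the sensitive tumours that had received LDE225 for 16 h or 48 h. All 13 probe sets were higher in resistant tumours, where 13.5% of all probe sets were higher and 26.7% passed in either direction, and 11 did not overlap (6.99% of all probe sets). Hk2 was 1128 to 2399 in the 5 resistant tumours and 248 to 512 in the 5 treated sensitive tumours. The groups were far apart, with a 4.78-fold difference (log2 2.26 ± 0.14, adjusted p = 6.74e-09, limma). Vegfa 1420909_at was 81.8 to 439 in resistant tumours and 20.2 to 51.4 in treated sensitive tumours, a difference of 2.75 ± 0.28 (adjusted p = 1.69e-06). Ldha and Ndrg1 1420760_s_at had the smallest differences, 0.63 ± 0.15 and 0.53 ± 0.15. The sensitive tumours were dosed once a day for up to 48 h at 20 mg/kg/day, and the resistant ones in 2 daily doses up to day 26, so resistance, dose, schedule and duration cannot be told apart. With the 48 h tumours alone as the treated group, 12 probe sets were higher (15.1% of all probe sets were, and 29.9% passed), and Bnip3, at 0.81 ± 0.32, had an adjusted p of 0.0621.

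Gapdh, a glycolytic enzyme measured here by 3 control probe sets, passed in none of these comparisons. It differed by -0.30 to -0.16 at 48 h, by 0.16 to 0.22 between resistant and vehicle tumours and by 0.19 to 0.29 between resistant and treated sensitive tumours. The lowest adjusted p over the 9 main comparisons was 0.139 (limma).

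A mean profile of the 8 genes, with each probe set centred on its mean over the 21 tumours, orders the groups as a description. The resistant tumours at 160 mg/kg/day were highest, at 1.01 to 1.35 on the log2 scale, above the vehicle tumours of 48 h at 0.45 to 0.66 without overlap. The resistant tumours at 20 mg/kg/day, at 0.25 to 0.52, overlapped the vehicle tumours of 48 h. The vehicle tumours of 4 h (-0.29 to 0.13) and of 16 h (-0.57 to 0.21) came next and overlapped each other. The LDE225 tumours were lowest, at -0.62 to -0.31 at 4 h, -0.80 to -0.39 at 16 h and -0.77 to -0.67 at 48 h, and each of these overlapped its neighbour in the order. At 48 h the LDE225 tumours were the furthest from their vehicle tumours, on both sides of the mean.

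**Figure D3:**
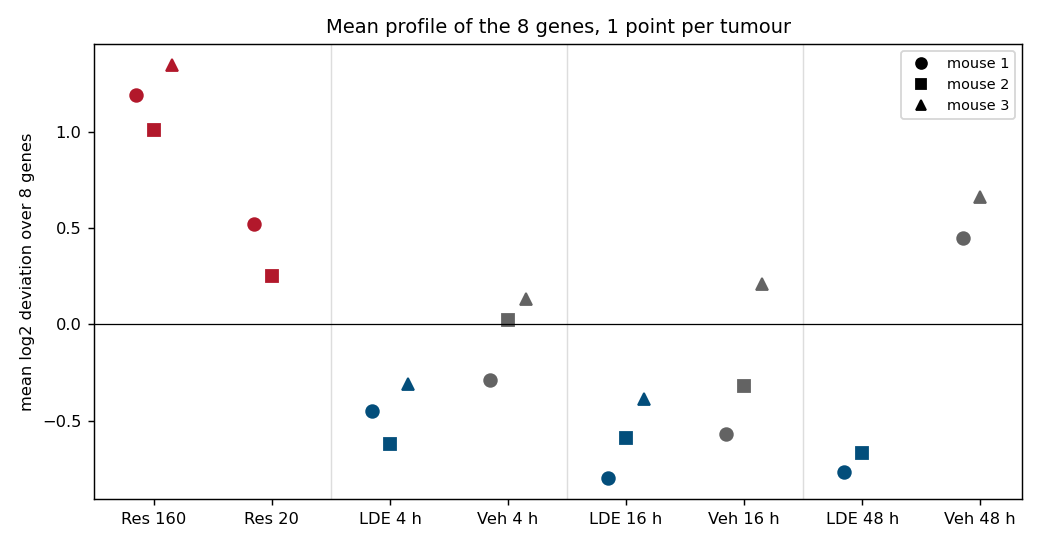
Mean log2 deviation over the 8 genes in each of the 21 tumours, with resistant tumours in red, LDE225-treated sensitive tumours in blue and vehicle tumours in grey, and symbols for the mouse number within a group. The resistant tumours at 160 mg/kg/day lie at 1.01 to 1.35, above the vehicle tumours of 48 h at 0.45 to 0.66.

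Of the 32829 other probe sets tested, 1450269_a_at was most like this profile over the 21 arrays (Pearson r = 0.977), followed by 1436538_at (r = 0.958). No table used here gives the genes of these probe sets. The r values describe arrays that share groups and carry no test.

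DNA amount at the 8 genes was read from the 6 tumours of day 26 as the log2 ratio of tumour to liver DNA in windows of 1 Mb. Of the 8 gene windows, 0 differed between resistant and vehicle tumours by limma, where 3.96% of 2551 windows did, and 4 had an unadjusted p under 0.05, as did 28.1% of all windows. Those 4, at Vegfa, Slc2a1, Ldha and Hk2, differed by -0.07 to -0.05. The tumours measured for DNA are not stated to be those measured for RNA.

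Hk2 lies on chromosome 6 (probes at chr6:82691541-82738912, build mm8), which was gained in every tumour. Its window stood at 0.46, 0.46 and 0.45 in resistant tumours (40, 80 and 160 mg/kg/day), against 0.52, 0.48 and 0.50 in vehicle tumours. The gain was of like size in both groups, with a difference of -0.05 (adjusted p = 0.143, limma, n = 3 each), and the 8 probes in the gene itself gave 0.45 to 0.49 in resistant tumours and 0.56 to 0.58 in vehicle tumours.

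Pgk1 lies on the X chromosome (probes at chrX:102392084-102400506, mm8). Its window stood at -0.77, -0.54 and 0.10 in resistant tumours (40, 80 and 160 mg/kg/day), against -0.17, -0.14 and -0.15 in vehicle tumours. Those on 40 and 80 mg/kg/day were far below the vehicle tumours, and the one at 160 mg/kg/day was above them. At the gene itself, 2 probes gave means of -1.05, -1.09 and -0.46 in these resistant tumours, against -0.10, -0.26 and -0.21 in vehicle tumours. There the mean at 160 mg/kg/day was also below every vehicle tumour, but its 2 probes had an SD of 0.36. The array of that tumour had the largest SD between neighbouring probes (0.47). The median over the whole X chromosome was -0.89, -0.69 and -0.12 in these resistant tumours and -0.25 to -0.23 in vehicle tumours, so the low values were not those of Pgk1 alone. The difference at Pgk1 was -0.25 ± 0.23 (SE, adjusted p = 0.455, limma), and without the tumour at 160 mg/kg/day it was -0.51 (adjusted p = 0.0335). With normexp background correction it turned to 0.06. The labels of the tumour at 160 mg/kg/day disagree, which call it vehicle in the title and in the source name but give a resistant status, LDE225 and a dose.

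Ndrg1 lies on chromosome 15 (probes at chr15:66759972-66797824, mm8, listed under the older name Ndrl). Its window stood at 0.07, 0.45 and 0.13 in resistant tumours at 40, 80 and 160 mg/kg/day, against -0.04, -0.01 and 0.00 in vehicle tumours. All resistant tumours were above all vehicle tumours, and the one at 80 mg/kg/day was far above the rest. The difference of 0.23 ± 0.10 did not pass (adjusted p = 0.214, limma). Bnip3 and Adm, both on chromosome 7, differed by 0.03 and 0.01.

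Related genes were looked up in the same DNA data, from lists of the pathway. Of 9 genes of the oxygen-sensing machinery 1 window was lower in resistant tumours, that of Cited2, a competitor of HIF for its coactivators, at -0.70 (adjusted p = 0.0017, limma). Cited2 lies on chromosome 10, and how far the lower DNA amount reached beyond this window was not examined here. Of 21 other HIF targets 3 were lower, among them those of Ddit4 (-0.14) and Angptl4 (-0.09). Of 16 other glycolysis genes with a window 1 was lower, that of the glucose transporter Slc2a3 (-0.07). Larger differences than those of Ddit4, Angptl4 and Slc2a3 did not pass at Hif1an (-0.50), Mxi1 (-0.42) and Pgam1 (-0.42), all on chromosome 19. Over all windows 3.68% were lower.

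**Figure D4:**
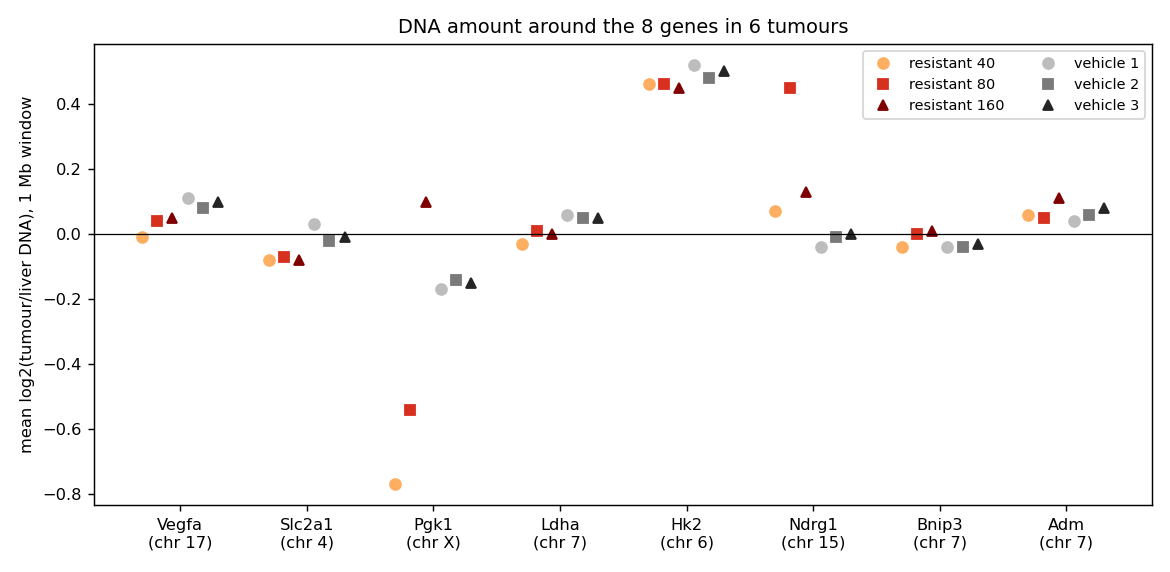
Mean log2 ratio of tumour to liver DNA in the 1 Mb window around each gene, with 1 point per tumour, for resistant tumours at 40, 80 and 160 mg/kg/day (coloured) and 3 vehicle tumours (grey). Hk2 stands near 0.5 in all 6 tumours, and Pgk1 is low in those on 40 and 80 mg/kg/day.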

How the data were processed

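RNA of 21 tumours was measured on Affymetrix Mouse Genome 430 2.0 arrays, and the deposited intensity values are linear MAS5 signals, per the submitters' processing notes. DNA of 6 tumours (Cy5) and liver (Cy3) was measured on Agilent arrays, and the deposited intensity files come from Feature Extraction 9.5.3.1 with positions of mm8, per the file headers. The authors' value table of log10 ratios served as an alternative, converted to log2.

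For RNA, log2(deposited intensity + 4) was fitted over 8 groups with limma 3.58.1 (R 4.3.3, mean-variance trend, 13 residual degrees of freedom, Benjamini-Hochberg adjustment, two-sided). The low-signal filter kept probe sets at or above the percentile 40 of an array in 2 or more arrays, without the 64 controls. For DNA, the autosomal median was subtracted from every array's log2 ratios, and limma compared 2551 windows of 1 Mb that held 5 probes or more. Between 99.8% and 99.9% of DNA probes were well above background. The SD between neighbouring probes was 0.17 to 0.23 on the vehicle arrays and 0.30 to 0.47 on the resistant arrays. Noise thus moved with the groups compared, and its part in the DNA differences was not tested. Array number limits the precision.

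The members, lists and tests were chosen with earlier results of these data known. All 8 genes are described, and list genes past the threshold are named, at most 3 per list, except 1 that is not reported here. No table used here pairs other probe sets with genes, so the lists and cell type markers were not analysed in RNA. Promoters came from RefSeq (GRCm38.p6). Tested on simulated data, limma found 35.5% (4 h), 39.5% (16 h), 17.5% (48 h) and 64.5% (resistant against vehicle) of 200 planted log2 changes of 1 among 32842 probe sets. In that simulation no other probe set changed. The adjustment depends on how many probe sets change, so these shares need not hold where 14.4% (16 h) or 22.7% (48 h) passed. The alternatives changed offset, scaling, filter, trend, weights, block and samples. The replicate numbers did not pair the samples, with correlations of deviations between -0.20 and 0.18. Python 3.11.15, numpy 2.4.6, pandas 2.3.3 and matplotlib 3.10.9 were used.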

Additional observations from a re-analysis of the deposited data

Results flagged for a closer look

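The effect of LDE225 differed between 48 h and 4 h for 6 probe sets by the limma test of the difference itself. It was -1.84 for Vegfa 1451959_a_at (adjusted p = 0.0488), -1.25 for Slc2a1 1426599_a_at (0.0371), -1.15 for Slc2a1 1426600_at (0.0377), -1.18 for Slc2a1 1434773_a_at (0.0143), -1.45 for Hk2 (0.00267) and -1.70 for Ndrg1 1423413_at (0.00777). The Vegfa call held in 7 of 19 alternatives, those of Slc2a1 in 10, 11 and 17 of 19, and those of Hk2 and Ndrg1 in 19 of 19. The Vegfa call was lost with an offset of 1 (0.0646), no filter (0.063) or no trend (0.0711). It was also lost without LDE225 mouse 1, 2 or 3 of 4 h (0.054, 0.056 and 0.105) or 1 or 2 of 48 h (0.116 and 0.126), and without vehicle mouse 1, 2 or 3 of 4 h (0.103, 0.0722 and 0.0535) or 3 of 48 h (0.239). These differences were taken on the log2 scale, and 48 h lies on the other side of the actin ratio from 4 h. They include the difference between vehicle tumours of 48 h and 4 h given above.

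In 5 of 26 sets of tumours (13 probe sets, each in the resistant and in the vehicle tumours), a single tumour stood far from the others of its set. Distance was the gap to the next tumour as a share of the range of the set. The cut-offs mark about 1 set in 20 only where all tumours of a set vary alike. These sets pool doses or times, so that rate need not hold here, and probe sets of 1 gene share tumours. Resistant mouse 3 at 160 mg/kg/day was the highest for Pgk1, at 6853 against 4703 for the next, and for Ldha, at 9631 against 6104 for the next. Resistant mouse 1 at 160 mg/kg/day was the highest for Ndrg1 1450976_at, at 280.4 against 137.4 for the next, and for Ndrg1 1420760_s_at, at 388.3 against 224.2. Vehicle mouse 1 of 16 h was the lowest for Hk2, at 871 against 1298 for the next.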

How the results depend on the processing

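Leaving out single tumours is given further below. Among the other alternatives, counts of the 13 probe sets past the threshold moved by over 1.5 times in these. At 4 h the count of 1 was 0 without the mean-variance trend. At 16 h the count of 3 was 6 with array weights. At 48 h the count of 11 was 7 against vehicle tumours of 4 h and 16 h. For the effect at 48 h minus 4 h the count of 6 was 3 without the trend. For resistant against vehicle the count of 10 was 0 against vehicle of 48 h, 0 for 20 mg/kg/day alone, and 0 for either dose against vehicle of 48 h. For 160 against 20 mg/kg/day the count of 1 was 3 with an offset of 32 or quantile normalization, 2 with median centring, and 0 with no filter, no trend, array weights, the replicate block or only the groups compared. For vehicle 48 h against 4 h the count of 0 was 1 with an offset of 32 and 2 with array weights. Causes were not tested. The comparisons of single doses with vehicle and of 48 h with other vehicle times were chosen after seeing the data.

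Without single tumours the count was 0 to 1 at 4 h, 1 to 2 at 16 h, 6 to 10 at 48 h, 0 to 0 for 16 h minus 4 h, 2 to 6 for 48 h minus 4 h, 6 to 10 for resistant against vehicle, 13 to 13 against treated sensitive tumours, 0 to 2 for the doses, 0 to 0 for vehicle times and 0 to 1 for copy number. With the replicate block the counts were 1, 4 and 9 at 4 h, 16 h and 48 h, 4 for 48 h minus 4 h and 11 for resistant against vehicle. No paired analysis was possible for the DNA because the resistant numbers are not in its labels.

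Signs turned in 26 of 2004 single values, none of them past the threshold after turning. At 4 h, Ldha turned to 0.02 with array weights, 0.08 without vehicle mouse 3 and 0.04 without LDE225 mouse 2 (lowest -0.15 without a single tumour), and Ndrg1 1450976_at to 0.08, 0.03 and 0.09 without vehicle mouse 1, vehicle mouse 3 or LDE225 mouse 2, where Ndrg1 1420760_s_at turned to 0.06 (lowest -0.16). At 16 h, Vegfa 1451959_a_at turned to 0.07 or 0.09 without vehicle mouse 2 or 3 (lowest -0.85), and Bnip3 to 0.28 or 0.06 without vehicle mouse 3 or LDE225 mouse 1 (lowest -0.38). At 48 h, Bnip3 turned to 0.14 against all vehicle tumours and 0.42 against those of 4 h and 16 h, where Adm turned to 0.08. Resistant Adm turned to -0.06 against vehicle of 48 h. For 20 mg/kg/day against vehicle of 48 h the values were -0.19 (Vegfa 1420909_at), -0.18 and -0.34 (Slc2a1 1426599_a_at and 1434773_a_at), -0.03 (Pgk1), -0.14 (Hk2), -0.27 and -0.10 (Ndrg1 1450976_at and 1420760_s_at), -0.08 (Bnip3) and -0.78 (Adm). In DNA, Pgk1 turned to 0.06 with normexp and Adm to -0.01 without the tumour at 160 mg/kg/day.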
